A study of Mus musculus with 24 samples.

Results

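The miR-106b-25 cluster is a set of 3 neighbouring miRNA hairpins, miR-106b, miR-93 and miR-25, that lie in a single intron of the gene Mcm7. Each hairpin can give a mature miRNA from its 5′ arm and another from its 3′ arm, so the cluster has 6 mature members: mmu-miR-106b-5p, mmu-miR-106b-3p, mmu-miR-93-5p, mmu-miR-93-3p, mmu-miR-25-3p and mmu-miR-25-5p. The rule that picks the members uses their names and no measured value, although the cluster was chosen for description with earlier results of these data known. They are 6 of the 1978 mature mouse miRNAs counted. All 6 had enough counts to be tested in both cell types. They are described here across 2 cell types and 3 genotypes, with the balance between the arms of each hairpin.

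Small RNA was sequenced from mouse testis in 24 libraries, 4 for each of the 6 groups. The cell types were pachytene/diplotene spermatocytes, which are in meiotic prophase, and round spermatids, the haploid cells that follow the meiotic divisions. Both were enriched on a BSA gradient from the pooled testes of 2 to 5 males of 10 to 15 weeks, to a stated purity above 70%, so that the fractions also held other cells. The study's methods give a higher range of purity for round spermatids than for spermatocytes. The genotypes were Ago413+/+ (wild type), Ago413+/- and Ago413-/-, all on a C57BL/6J background. The Ago413 allele is a constitutive deletion, in every cell, that removes Ago1 and parts of Ago3 and Ago4 and leaves Ago2 intact. The loss of these genes could not be checked in counts of miRNAs. The comparisons ask how the miRNAs of the germline differ when 3 of the 4 Argonaute genes are deleted in whole or in part. A lower level in a fraction can be fewer cells that make the miRNA or less of it per cell, and these cannot be told apart here.

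A miRNA hairpin is cut from a longer transcript by Drosha and then by Dicer, which leaves a duplex of the 5p and 3p arms. The guide strand of the duplex is kept in an Argonaute protein, and the passenger strand is usually released and degraded. The guide finds its mRNAs mainly through the seed, bases 2 to 8 from its 5′ end, and lowers their translation and stability. Mcm7, the host gene, encodes a subunit of the helicase that opens DNA for replication, and the cluster is best known from dividing cells, where miR-106b-5p and miR-93-5p restrain the cell cycle inhibitor Cdkn1a and miR-25-3p the death-promoting gene Bcl2l11. The miR-17-92 and miR-106a-363 clusters are its paralogs and carry miRNAs with the same seeds.

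The 3 hairpins are shown with both mature arms in capitals and the rest in lower case, because the results below turn on which arm is counted. The sequences are those of RefSeq on GRCm38.p6, the same build as the mm10 alignments, read 5′ to 3′ on the minus strand of chromosome 5 in the order of transcription.
Mir106b, chr5:138165737-138165818: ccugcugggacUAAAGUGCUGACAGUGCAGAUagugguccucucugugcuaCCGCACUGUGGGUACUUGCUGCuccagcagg
Mir93, chr5:138165523-138165610: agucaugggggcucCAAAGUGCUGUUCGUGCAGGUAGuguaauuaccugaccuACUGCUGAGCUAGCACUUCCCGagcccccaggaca
Mir25, chr5:138165321-138165404: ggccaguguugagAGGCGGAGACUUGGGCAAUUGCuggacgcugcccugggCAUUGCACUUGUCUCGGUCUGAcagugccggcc

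The hairpins span 498 bases, with 126 bases between Mir106b and Mir93 and 118 between Mir93 and Mir25. All lie in intron 13 of the 14 introns of Mcm7 (ENSMUSG00000029730.16, chr5:138164583-138172422, minus strand), an intron of 748 bases. An annotated Mcm7 transcript that retains intron sequence overlaps Mir93 and Mir25 and does not overlap Mir106b. The mRNA of Mcm7 was not analysed here.

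The mature members are printed with the seed in capitals, since members that share a seed can share targets. The arms of Mir106b and Mir93 on the 5′ side have the same seed, which is also that of mmu-miR-17-5p and mmu-miR-20a-5p of the miR-17-92 cluster. The seed of mmu-miR-25-3p is that of mmu-miR-92a-3p, and each of the other 3 members has a seed of its own among the 6.
mmu-miR-106b-5p: uAAAGUGCugacagugcagau
mmu-miR-93-5p: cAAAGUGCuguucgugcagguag
mmu-miR-17-5p: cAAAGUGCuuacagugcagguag
mmu-miR-20a-5p: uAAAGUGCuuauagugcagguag
mmu-miR-25-3p: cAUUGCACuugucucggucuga
mmu-miR-92a-3p: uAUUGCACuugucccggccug
mmu-miR-106b-3p: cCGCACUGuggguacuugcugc
mmu-miR-93-3p: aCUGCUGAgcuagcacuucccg
mmu-miR-25-5p: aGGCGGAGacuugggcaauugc

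No member lay within 2 mismatches of any of the 1671 other mature sequences it was compared with, so reads of the members differ from those of their paralogs by at least 3 bases. The nearest were mmu-miR-106a-5p for mmu-miR-106b-5p, mmu-miR-20b-5p for mmu-miR-93-5p and mmu-miR-92a-3p for mmu-miR-25-3p, each at 3 mismatches.

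Library totals ran from 182904 to 1072637 counts, and levels below are CPM (counts normalised to the library size) scaled by TMM over the 24 libraries. A pair of spermatocyte libraries stood apart from their groups. Ago413-/- replicate 2 had the lowest total, and there miRNAs of low GC content were 0.85 lower on the log2 scale, relative to those of high GC content, than over all libraries. Its level of mmu-miR-93-5p was 1005 CPM, beside 5051 to 6383 CPM in the other 3 libraries of its group. Ago413+/- replicate 4 held 2783 CPM of this miRNA, beside 5229 to 6312 CPM in the others. Some spermatocyte results are therefore also given without this pair, an alternative chosen after seeing the data, and the others include both libraries. The meiotic germ cell miRNAs miR-34b-5p, miR-34c-5p and miR-449a-5p were present in every group and summed to between 18730 and 185930 CPM in a library.

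The more abundant arms were mmu-miR-25-3p, mmu-miR-93-5p and mmu-miR-106b-3p, and none of them passed the test in any comparison of genotypes or cell types. Over the 24 libraries mmu-miR-25-3p had a mean of 21028 CPM, rank 14 of the 1978 miRNAs, and held 72.9% of the counts of the cluster. mmu-miR-93-5p followed with 4546 CPM at rank 42, and mmu-miR-106b-3p with 2599 CPM at rank 65. By abundance the guide strand of miR-106b was thus the 3p arm, not the arm with the shared seed. Efficiency of ligation differs between sequences in small RNA libraries, so this order is one of counts. The cluster as a whole made up 2.82% ± 0.58 (SD, n = 24) of the counts of a library, from 1.96% to 4.42%.

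By group, mmu-miR-25-3p was at 18622 ± 3108 CPM (SD, n = 4, as for all groups) in Ago413+/+ spermatocytes, 20536 ± 8557 in Ago413+/- and 28826 ± 8238 in Ago413-/-. In round spermatids the same order of genotypes gave 20773 ± 7724, 18069 ± 4019 and 19341 ± 1995 CPM. These 6 groups overlapped in each of the 9 comparisons, and the order of their means does not exceed the spread.

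mmu-miR-93-5p was at 4142 ± 243, 5029 ± 1562 and 4466 ± 2374 CPM in Ago413+/+, Ago413+/- and Ago413-/- spermatocytes. Its means in round spermatids were 3800 ± 679, 4871 ± 625 and 4966 ± 1223 CPM. Here too the groups overlapped in all 9 comparisons. The difference between Ago413-/- and Ago413+/+ round spermatids, a log2 fold change of 0.53 (SE 0.22), did not pass the test (adjusted p = 0.0803).

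mmu-miR-106b-3p was at 2175 ± 237, 2255 ± 500 and 3331 ± 1291 CPM in the 3 spermatocyte groups and at 2759 ± 363, 2239 ± 412 and 2837 ± 689 CPM in the round spermatid groups. Its 4 libraries of Ago413-/- spermatocytes stood at 2822, 1964, 3522 and 5015 CPM, which spans the wild-type range of 1976 to 2462 CPM. The log2 fold change there was 0.60 (SE 0.32, adjusted p = 0.260), beside 0.62 (SE 0.31, adjusted p = 0.245) for mmu-miR-25-3p. Without the pair of libraries that stood apart these values were 0.79 (adjusted p = 0.0579) and 0.74 (adjusted p = 0.0712).

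**Figure D1:**
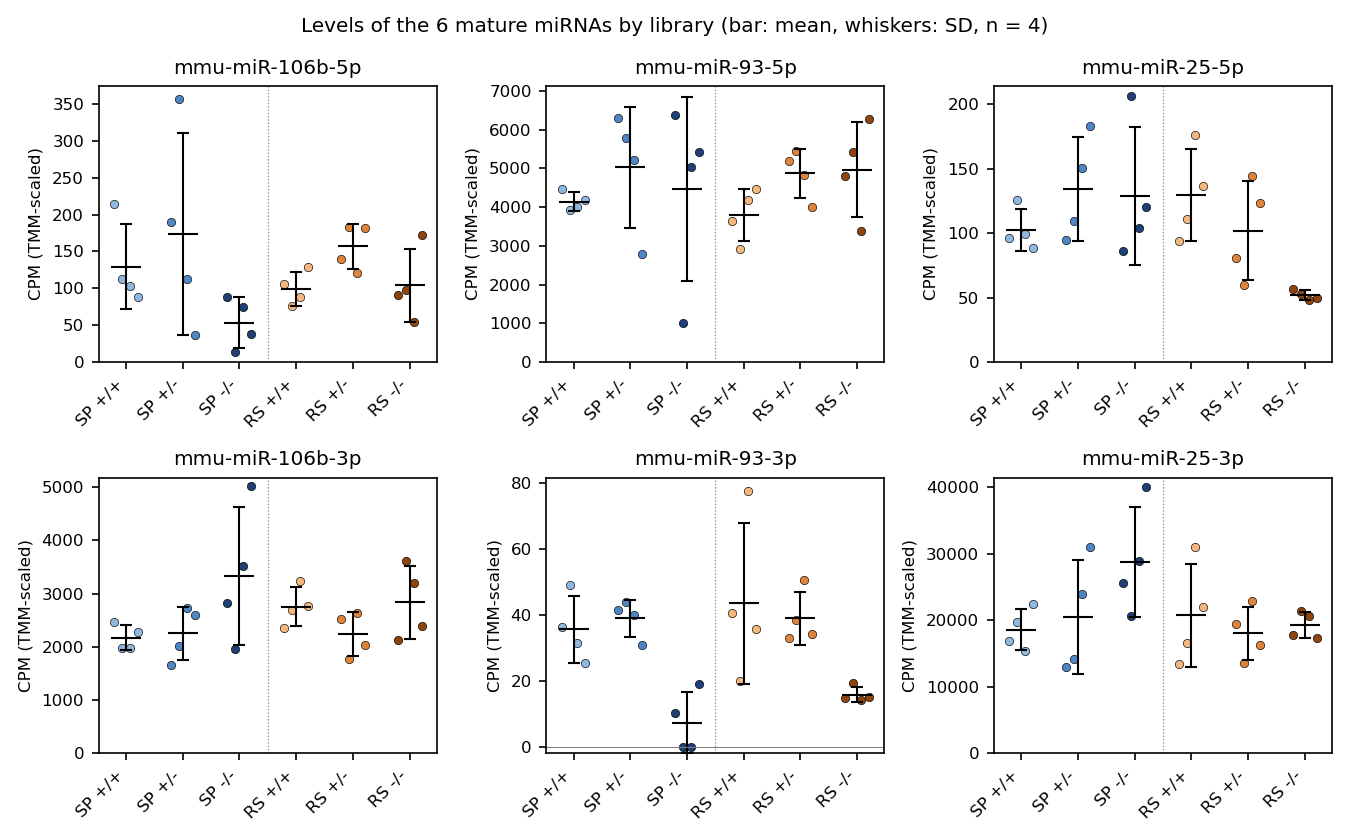
Level of each member by library in CPM scaled by TMM (y axes start at 0 or just below it), with 5p arms above and 3p arms below, for spermatocytes (SP) and round spermatids (RS) of Ago413+/+, Ago413+/- and Ago413-/- mice. Points are libraries, bars means and whiskers SD (n = 4). mmu-miR-25-5p in Ago413-/- round spermatids lies between 47.7 and 56.5 CPM, below every wild-type library, and mmu-miR-93-3p is at 0 in 2 Ago413-/- spermatocyte libraries.

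The less abundant arms gave the differences by genotype in round spermatids. mmu-miR-25-5p and mmu-miR-93-3p were lower in Ago413-/- than in Ago413+/+ round spermatids, while the other arm of each hairpin did not pass the test. Of the 6 members, 2 passed the test (adjusted p under 0.05 and a change of at least 1 on the log2 scale) and both fell, beside 16.2% of all 426 miRNAs tested, of which 8.69% fell. The median log2 fold change of the members was 0.12, and that of all miRNAs tested was 0.13. Of the 69 miRNAs called 37 were lower, and 52 of 68 were with library totals without scaling, which moved the median of all miRNAs to -0.09. mmu-miR-25-5p and mmu-miR-93-3p were called lower under both scalings, at -1.38 and -1.45 without TMM.

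mmu-miR-25-5p, the passenger strand of miR-25 by abundance, was at 93.6, 111, 176 and 137 CPM in the 4 wild-type libraries of round spermatids. The Ago413-/- libraries held 56.5, 52.9, 47.7 and 49.5 CPM. All 4 were below the lowest wild-type library, as was so for 15.5% of all miRNAs tested. The log2 fold change was -1.15 (SE 0.30, adjusted p = 0.0120). It stayed past both thresholds with each other scaling, test and filter tried and on leaving out any 1 library (adjusted p from 0.00141 to 0.0327). The guide strand mmu-miR-25-3p changed by 0.07 (SE 0.23) in the same comparison.

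mmu-miR-93-3p, the passenger strand of miR-93 by abundance, was at 40.7, 20.1, 77.8 and 35.96 CPM in wild-type round spermatids. Its Ago413-/- libraries stood at 15.0, 19.5, 14.2 and 15.1 CPM. The groups did not overlap, but they came within 1 CPM of each other, and these Ago413-/- values rest on 7 to 11 counts per library. In round spermatids mmu-miR-93-3p entered the test only through the wild-type and Ago413+/- libraries, with 20 to 30 counts each. The Ago413-/- libraries alone would not have met the filter on low counts. The log2 fold change was -1.22 (SE 0.38, adjusted p = 0.0299). It fell short of the threshold when Ago413-/- replicate 1, 3 or 4 or wild-type replicate 3 was left out (adjusted p = 0.0641, 0.0777, 0.0561 and 0.0961), and without wild-type replicate 3 the change was -0.90.

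The columns of counts are named by a number, called the library number here, which the labels do not explain or call a batch. The split of these numbers at 60 was set for this description, and the direction held on both sides. Among numbers up to 60, mmu-miR-25-5p was at 93.6 and 111 CPM in wild type and at 56.5 and 52.9 CPM in Ago413-/-, and mmu-miR-93-3p at 40.7 and 20.1 against 15.0 and 19.5 CPM. Among the higher numbers the values were 176 and 137 against 47.7 and 49.5 CPM for mmu-miR-25-5p, and 77.8 and 35.96 against 14.2 and 15.1 CPM for mmu-miR-93-3p. With a term for this split in the fit, the changes were -1.14 and -1.20 (adjusted p = 0.0160 and 0.0391).

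Against Ago413+/- round spermatids, mmu-miR-93-3p was again lower in Ago413-/-. The heterozygous libraries held 33.0, 38.4, 50.6 and 34.4 CPM, all above the highest Ago413-/- library. Its log2 fold change was -1.22 (SE 0.38, adjusted p = 0.0380), and it was the only member called, beside 12.4% of the 426 miRNAs (7.28% lower). That is 31 lower of 53, against 37 of 54 with RLE scaling and 54 of 57 with library totals without scaling. This comparison shares the Ago413-/- libraries with the one above. mmu-miR-25-5p was at 80.7, 60.1, 144 and 123 CPM in the heterozygous libraries, also without overlap, and its change of -0.90 (SE 0.30, adjusted p = 0.0451) stayed under the fold threshold. The share of all miRNAs without overlap was counted only against wild type, where 15.5% were lower in this way. The call of mmu-miR-93-3p was lost on leaving out any 1 of the libraries except Ago413-/- replicate 2 (adjusted p from 0.0559 to 0.0958).

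No member passed the test between Ago413+/- and Ago413+/+ round spermatids (0% of 426 miRNAs called by edgeR, and 8 by DESeq2, which called no member). At an unadjusted p under 0.05 there were 68 miRNAs, of which mmu-miR-106b-5p was the single member. mmu-miR-106b-5p, the arm of miR-106b with the shared seed, was at 106, 75.8, 88.0 and 128 CPM in wild type and at 140, 184, 121 and 182 CPM in Ago413+/-. Only the lowest heterozygous library fell within the wild-type range. The log2 fold change was 0.72 (SE 0.32, adjusted p = 0.310). In Ago413-/- its 91.4, 97.4, 54.2 and 172 CPM spread around the wild-type values (log2 fold change 0.18, SE 0.32).

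Markers of other cells moved with genotype in the same round spermatid libraries. The endothelial miRNAs miR-126a-3p and miR-126a-5p summed to 511 to 1988 CPM in wild type and 1949 to 5852 CPM in Ago413-/-, and 1 of the 2 was called higher. The red blood cell list (miR-451a, miR-144-3p and miR-486a-5p) summed to 49.1 to 501 CPM in wild type and 103 to 4807 CPM in Ago413-/-, with both of the tested members called higher. The white blood cell list (miR-223-3p, miR-142a-3p, miR-142a-5p and miR-150-5p) summed to 151 to 351 CPM and 414 to 584 CPM, with 2 of 4 called higher. Peritubular miRNAs (miR-143-3p and miR-145a-5p) ranged from 1059 to 8545 CPM in wild type and 2029 to 3440 CPM in Ago413-/-, and spermatogonial miRNAs (miR-21a-5p, miR-221-3p and miR-222-3p) from 5305 to 8781 and 8932 to 11503 CPM, with 0 called in either list by edgeR. None of the lists had all its markers at 0 in either group. Of all 426 miRNAs tested in this comparison of round spermatids 16.2% were called, 8.69% of them all as lower. In spermatocytes no miRNA of these lists was called by edgeR between Ago413-/- and Ago413+/+, beside 4.46% of 404 miRNAs. The part of these other cells in the lower passenger strands was not tested.

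In spermatocytes no member passed the test between Ago413-/- and Ago413+/+ (0 of 6, beside 4.46% of 404 miRNAs, with 1 member at an unadjusted p under 0.05). The largest difference was that of mmu-miR-93-3p. Its wild-type libraries stood at 36.5, 49.3, 31.6 and 25.4 CPM, and those of Ago413-/- at 10.4, 0, 0 and 19.2 CPM. All 4 were below the wild-type range, as was so for 12.6% of all miRNAs tested. The 2 values of 0 are replicates 2 and 3, where a count of 0 allows up to 20.0 and 11.1 CPM, and the other 2 rest on 4 counts each. Here too mmu-miR-93-3p entered the test only through the genotypes where it was higher. Its log2 fold change was -2.17 (SE 0.66, adjusted p = 0.0713), -1.93 without the pair of libraries that stood apart (adjusted p = 0.0529), and it was called by DESeq2 (-2.25, adjusted p = 0.00931). It was also called without Ago413-/- replicate 4, at -2.89 (adjusted p = 0.0443).

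mmu-miR-106b-5p was the other member whose spermatocyte groups did not overlap. The 4 wild-type libraries held 214, 112, 103 and 88.8 CPM and the Ago413-/- libraries 88.4, 13.3, 74.1 and 38.5 CPM, so that the nearest libraries of the groups were nearly equal. The log2 fold change was -1.22 (SE 0.62, adjusted p = 0.244), and -0.92 (adjusted p = 0.203) without the pair that stood apart. The Ago413+/- libraries were spread from 37.3 to 357 CPM. mmu-miR-25-5p, which fell in round spermatids, was at 96.3, 126, 99.3 and 88.8 CPM in wild-type spermatocytes and at 85.8, 206, 104 and 120 CPM in Ago413-/-, with a log2 fold change of 0.30 (SE 0.36, adjusted p = 0.644). Without Ago413-/- replicate 2, the library with 206 CPM, the change was -0.02 (adjusted p = 0.972).

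Ago413-/- against Ago413+/- spermatocytes gave the same 2 members the largest differences, without a call (2.23% of 404 miRNAs called). mmu-miR-93-3p was at 41.5, 44.0, 40.0 and 31.1 CPM in the heterozygous libraries, all above Ago413-/-, with a log2 fold change of -2.34 (SE 0.66, adjusted p = 0.0869). How many of all miRNAs were separated in this way was not counted for this comparison. mmu-miR-106b-5p changed by -1.72 (SE 0.62, adjusted p = 0.0991), with overlap. Leaving out the pair of libraries that stood apart brought both past the threshold, at -2.22 (adjusted p = 0.0307) and -1.79 (adjusted p = 0.0258), while the miRNAs called went from 9 to 61. Leaving out Ago413+/- replicate 4 alone did the same (-2.47 and -2.06, adjusted p = 0.0314 and 0.0246), and DESeq2 called both in all libraries (-2.46 and -1.84). Without Ago413-/- replicate 4 mmu-miR-93-3p alone was called (-3.06, adjusted p = 0.0454). Between Ago413+/- and Ago413+/+ spermatocytes 0% of the 404 miRNAs were called by edgeR or by DESeq2. No member was among the 13 whose unadjusted p was under 0.05.

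**Figure D2:**
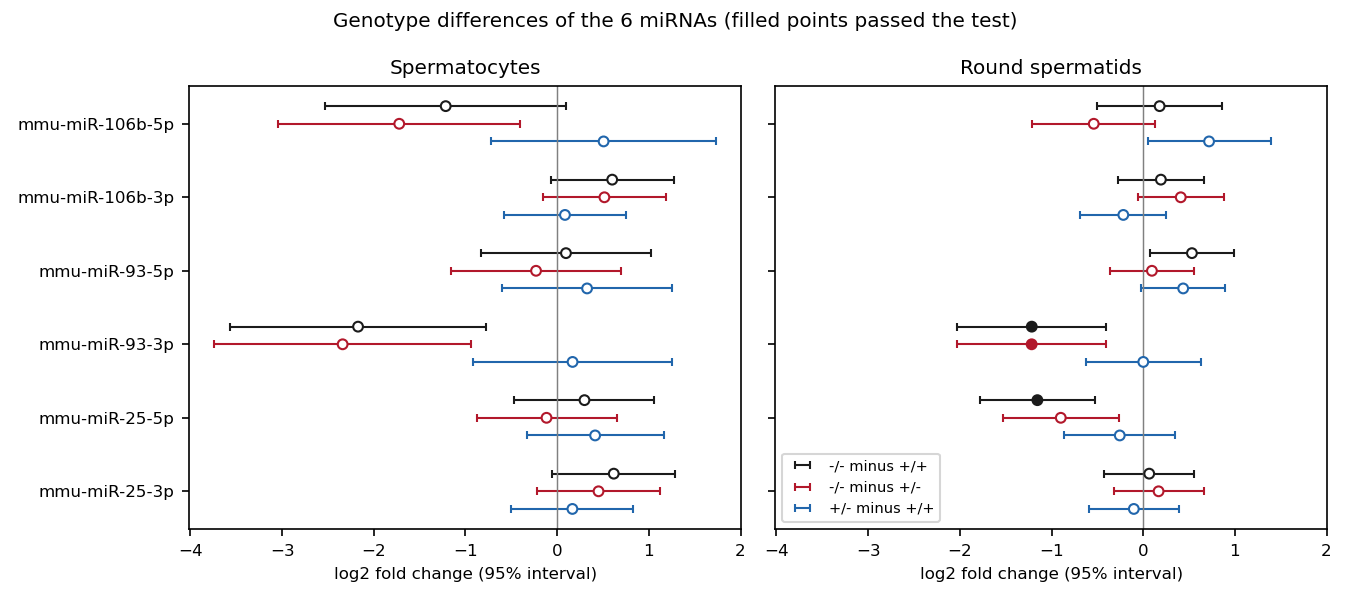
Log2 fold change of each member (x axis) with its 95% interval from edgeR, for the 3 genotype comparisons in spermatocytes (left) and round spermatids (right); filled points passed the test. The filled points are mmu-miR-93-3p at -1.22 against both Ago413+/+ and Ago413+/- and mmu-miR-25-5p at -1.15 against Ago413+/+, all in round spermatids.

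The balance of the arms was then measured within each library, as the share of the less abundant arm in the counts of both arms, which needs no scaling between libraries. In all 6 groups the 3p arm prevailed in miR-106b and miR-25 and the 5p arm in miR-93. The test was an exact two-sided permutation test on log2(5p/3p), whose smallest p with 4 libraries against 4 is 0.0286. Over 3 hairpins and 9 comparisons, 7 of 27 tests gave that p, all between Ago413-/- and another genotype, but after adjustment over the 27 tests none passed (lowest adjusted p = 0.110). An adjusted p under 0.05 would need most tests of a family at that smallest p. The adjustment could thus hardly be passed with 4 libraries in a group and decides little, also for the ratios and shares below.

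The arm mmu-miR-25-5p made up 0.635% ± 0.057 of the counts of miR-25 in wild-type round spermatids, 0.558% ± 0.162 in Ago413+/- and 0.269% ± 0.038 in Ago413-/-. The Ago413-/- libraries gave 19 to 37 counts of this arm, at shares of 0.230% to 0.315%, and no library of the other genotypes was below 0.412%. On the log2 scale the balance moved by -1.23 against wild type and by -1.01 against Ago413+/- (exact permutation p = 0.0286 each). In spermatocytes the shares were 0.559% ± 0.114, 0.675% ± 0.083 and 0.495% ± 0.330. Ago413-/- replicate 2 stood at 0.988% there, from 31 counts, with the other 3 libraries at 0.299% to 0.357%. Without that library and its counterpart the difference from wild type was -0.73 in place of -0.33.

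For miR-93, the share of mmu-miR-93-3p was 1.10% ± 0.51, 0.804% ± 0.180 and 0.332% ± 0.076 in Ago413+/+, Ago413+/- and Ago413-/- round spermatids. No Ago413-/- library exceeded 0.419%, and no other one was below 0.631%. The log2(5p/3p) balance was higher in Ago413-/- by 1.61 against wild type and by 1.23 against Ago413+/- (exact permutation p = 0.0286 each). Spermatocytes showed shares of 0.860% ± 0.272, 0.817% ± 0.197 and 0.129% ± 0.168. The Ago413-/- libraries had 4 counts of 2458, 0 of 151, 0 of 1364 and 4 of 1132, and the 0 of 151 in replicate 2 allows a share of up to 1.99%, which reaches above the wild-type mean. The differences of 2.32 and 2.27 (exact permutation p = 0.0286 each) shrank to 0.49 and 0.48 when 5 counts were added to each arm in place of 0.5.

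miR-106b had the most even arms of the cluster. Its 5p arm made up 5.51% ± 1.79 of the counts in wild-type spermatocytes, 7.66% ± 6.16 in Ago413+/- and 1.63% ± 1.13 in Ago413-/-. The 4 Ago413-/- libraries, at 3.04%, 0.673%, 2.06% and 0.761%, were below the lowest wild-type library at 3.75%, while Ago413+/- ranged from 1.42% to 15.0%. The balance differed from wild type by -1.94 (exact permutation p = 0.0286) and by -1.68 without the pair that stood apart. In round spermatids the shares were 3.53% ± 0.97, 6.83% ± 2.39 and 3.78% ± 2.20, and Ago413-/- and wild type overlapped.

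**Figure D3:**
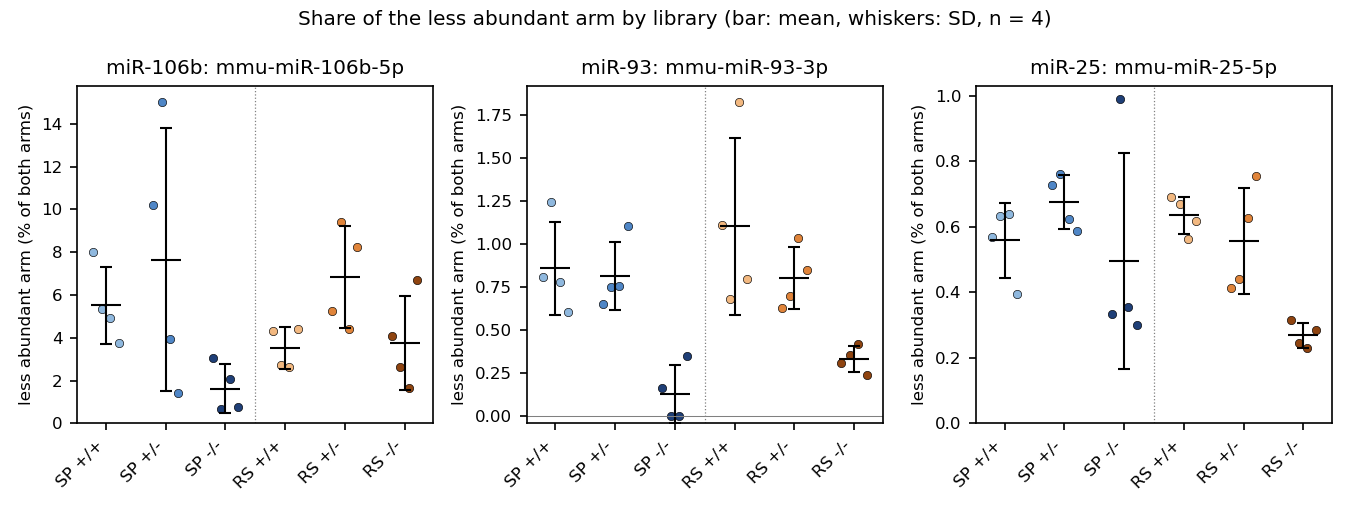
Share of the less abundant arm in the counts of both arms (y axis, percent) for miR-106b, miR-93 and miR-25 by group; SP are spermatocytes and RS round spermatids. Points are libraries, bars means and whiskers SD (n = 4). In Ago413-/- round spermatids miR-93-3p lies at or below 0.419% and miR-25-5p at or below 0.315%, under every library of the other genotypes there.

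Changes of the arms without overlap were found in other hairpins of the same libraries, in both directions. The background was 120 hairpins whose arms together reached 50 counts in each of the round spermatid libraries. Of these, 14.2% had a lower minor-arm ratio in every Ago413-/- than in every wild-type library, 9 hairpins had a higher one, and the median change over all 120 was -0.29 on the log2 scale. With the less abundant arm in the numerator, miR-93 changed by -1.61 (rank 11 from the lowest), miR-25 by -1.23 (rank 16) and miR-106b by -0.05 (rank 68). Among 86 hairpins in spermatocytes, 6.98% (6 hairpins, of which miR-93 and miR-106b are 2) were lower without overlap, 7 were higher, and the median change was -0.19. There miR-93 changed by -2.32 (rank 4), miR-106b by -1.94 (rank 8) and miR-25 by -0.33 (rank 38). The place of miR-93 in spermatocytes rests on the 0.5 counts added to an arm with 4, 0, 0 and 4 counts. With 5 counts added, the log2(5p/3p) balance of miR-93 differed by 0.49 and that of miR-106b by -1.41, so that miR-106b had the larger change.

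**Figure D4:**
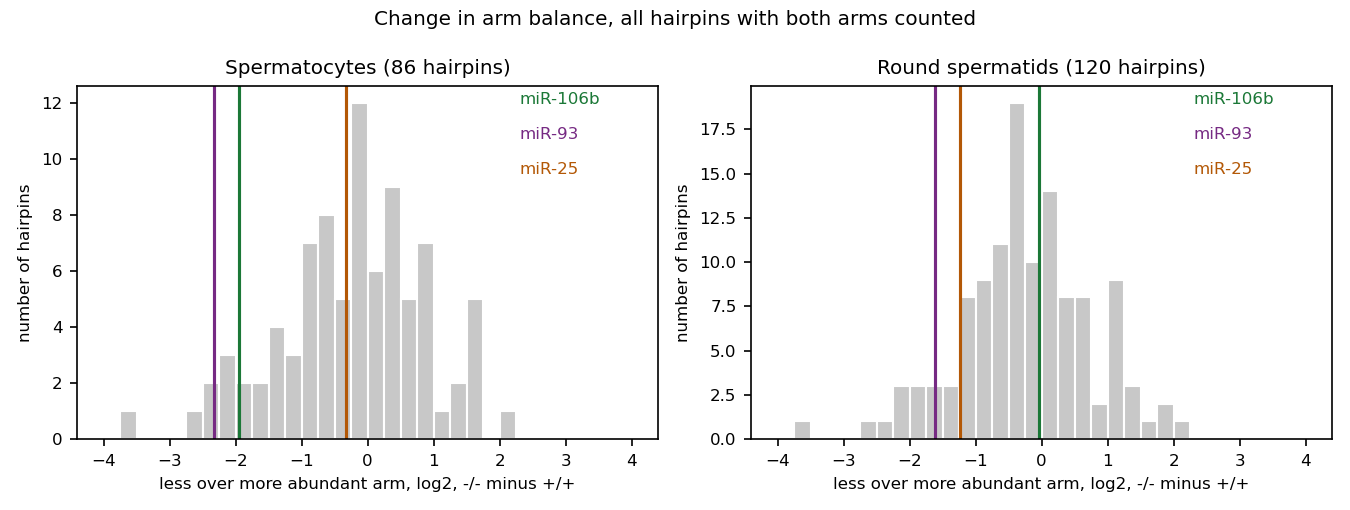
Histogram of the change between Ago413-/- and Ago413+/+ in log2 of the less over the more abundant arm (x axis, difference of group means), over 86 hairpins in spermatocytes and 120 in round spermatids (y axis, number of hairpins). Lines mark the 3 hairpins of the cluster: miR-93 lies to the left of most hairpins in both panels, at -2.32 and -1.61, the former from an arm with 0 to 4 counts in the Ago413-/- libraries.

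Between the cell types, no member passed the test in wild type (0% of 450 miRNAs called by edgeR or DESeq2, 10 at an unadjusted p under 0.05, none of them a member). The same held within Ago413+/- (0% of 450 called by either tool, 15 at an unadjusted p under 0.05, none a member). Wild-type log2 differences, round spermatids minus spermatocytes, ran from -0.38 (95% interval -1.37 to 0.60) for mmu-miR-106b-5p to 0.34 (-0.21 to 0.89) for mmu-miR-106b-3p, so that differences of about 1 on the log2 scale would be missed in the scarcer arms.

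Within Ago413-/-, mmu-miR-25-5p was lower in round spermatids than in spermatocytes and was the only member called, beside 4.89% of 450 miRNAs (3.33% lower). Its 4 round spermatid libraries, at 47.7 to 56.5 CPM, lay below the 4 of spermatocytes, at 85.8 to 206 CPM. How many of all miRNAs were separated like this between the cell types was not counted. The log2 fold change was -1.29 (SE 0.33, adjusted p = 0.0281). Without spermatocyte replicate 2, the library with 206 CPM, it was -0.84 (adjusted p = 0.151), and the call was also lost without round spermatid replicate 1, 2, 3 or 4 or spermatocyte replicate 4 (adjusted p from 0.0592 to 0.0964). The genotype difference of mmu-miR-25-5p itself was more negative in round spermatids than in spermatocytes by 1.61 on the log2 scale (SE 0.46), which did not pass adjustment (adjusted p = 0.225). In that test of the interaction 0% of 450 miRNAs were called by edgeR or DESeq2, with 55 at an unadjusted p under 0.05, and mmu-miR-93-3p differed between the cell types by 0.79 (SE 0.74, adjusted p = 0.603).

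The hairpins share 1 primary transcript, and the guide strands were set against each other within each library. The log2 ratio of mmu-miR-25-3p to mmu-miR-93-5p was 2.16 ± 0.26 in wild-type and 2.94 ± 1.01 in Ago413-/- spermatocytes, and 2.40 ± 0.42 and 1.99 ± 0.47 in round spermatids, all with overlap. The log2 ratio of mmu-miR-106b-3p to mmu-miR-25-3p had group means from -3.15 to -2.80 and was -3.00 ± 0.26 over all 24 libraries. The ratio of mmu-miR-106b-5p to mmu-miR-93-5p, members with the same seed, was lower in Ago413-/- than in wild-type spermatocytes by 1.22 without overlap (exact permutation p = 0.0286), the smallest p among 18 such tests, and did not pass adjustment (adjusted p = 0.294).

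The level of mmu-miR-25-3p over the 24 libraries went with that of mmu-miR-106b-3p (Pearson r = 0.79, 0.85 without the pair that stood apart) and not with that of mmu-miR-93-5p (r = -0.05 and 0.10). mmu-miR-106b-5p and mmu-miR-106b-3p, the arms of the same hairpin, went in opposite directions (r = -0.38 and -0.71). These are descriptions over libraries that share their scaling.

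Among 209 miRNAs with a mean of at least 100 CPM, those most like mmu-miR-93-5p over the 24 libraries were miR-20a-5p (r = 0.94), miR-19b-3p (0.93), miR-449a-5p (0.89), miR-30b-5p (0.89) and miR-16-5p (0.87). The first 2 are members of the miR-17-92 cluster. Leaving out the pair that stood apart gave r from 0.63 for miR-30b-5p to 0.85 for miR-20a-5p. For mmu-miR-25-3p the list was miR-182-5p (r = 0.85), miR-183-5p (0.84), miR-1194 (0.77), miR-7210-5p (0.76) and miR-200c-3p (0.76). mmu-miR-106b-3p shared 3 of these, miR-183-5p (0.87), miR-1194 (0.74) and miR-200c-3p (0.66), and had miR-148a-3p (0.69) and miR-191-5p (0.68) besides. The median r over all candidates was 0.14 for mmu-miR-93-5p, 0.05 for mmu-miR-25-3p and 0.07 for mmu-miR-106b-3p.

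The paralogs printed above with the same seeds place the cluster in its families. Of the miRNAs with the seed of mmu-miR-93-5p, mmu-miR-20a-5p was about as abundant as mmu-miR-93-5p and mmu-miR-17-5p less so, with 4011 ± 778 and 1350 ± 411 CPM in wild-type spermatocytes. mmu-miR-106b-5p added 130 ± 57 CPM, and miR-20b-5p and miR-106a-5p less than 20 CPM in each group mean. Of the 4 paralogs with this seed, 1 was called between Ago413-/- and Ago413+/+ round spermatids, beside 16.2% of all 426 miRNAs. It was mmu-miR-20a-5p, with 2722 ± 819 CPM in wild type, 5293 ± 1138 in Ago413+/- and 5307 ± 1076 in Ago413-/-. Its log2 fold change between Ago413-/- and wild type was 1.10 (SE 0.24, adjusted p = 0.00592). Ago413+/- differed from wild type by 1.03 without a call (adjusted p = 0.0617), and Ago413-/- from Ago413+/- by 0.07 (adjusted p = 0.841). The mean was thus about as high in Ago413+/- as in Ago413-/-, although only Ago413-/- was called against wild type. mmu-miR-6383, the remaining miRNA with this seed, had no count in any library. The share of mmu-miR-93-5p and mmu-miR-106b-5p in the family was 50.7% ± 4.1 in wild-type round spermatids, 43.2% ± 3.1 in Ago413+/- and 42.7% ± 1.7 in Ago413-/-. Neither of the last 2 groups overlapped with wild type (exact permutation p = 0.0286 each, adjusted p = 0.171 over 18 tests of shares).

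In the family of mmu-miR-25-3p, mmu-miR-92a-3p was the most abundant miRNA in every group, with 27873 ± 3112 CPM in wild-type spermatocytes and 54616 ± 24168 CPM in Ago413-/- (log2 fold change 0.97, SE 0.33, adjusted p = 0.0873). None of the 4 tested paralogs with this seed was called in that comparison, and none of 3 in round spermatids. mmu-miR-25-3p held 39.7% ± 2.9, 35.4% ± 2.8 and 36.2% ± 12.2 of the family in the 3 genotypes of spermatocytes, and 40.8% ± 5.2, 40.6% ± 3.0 and 36.7% ± 4.6 in round spermatids. Ago413-/- spermatocyte replicate 2, which stood apart, held 89401 CPM of mmu-miR-92a-3p, beside 33448 to 48664 CPM in the others of its group. The share of mmu-miR-25-3p was 18.6% in it and 37.2% to 45.9% in the others. No genotype comparison of this share was without overlap. Within Ago413+/- it was higher in round spermatids than in spermatocytes by 5.24 percentage points (exact permutation p = 0.0286, adjusted p = 0.171).

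**Figure D5:**
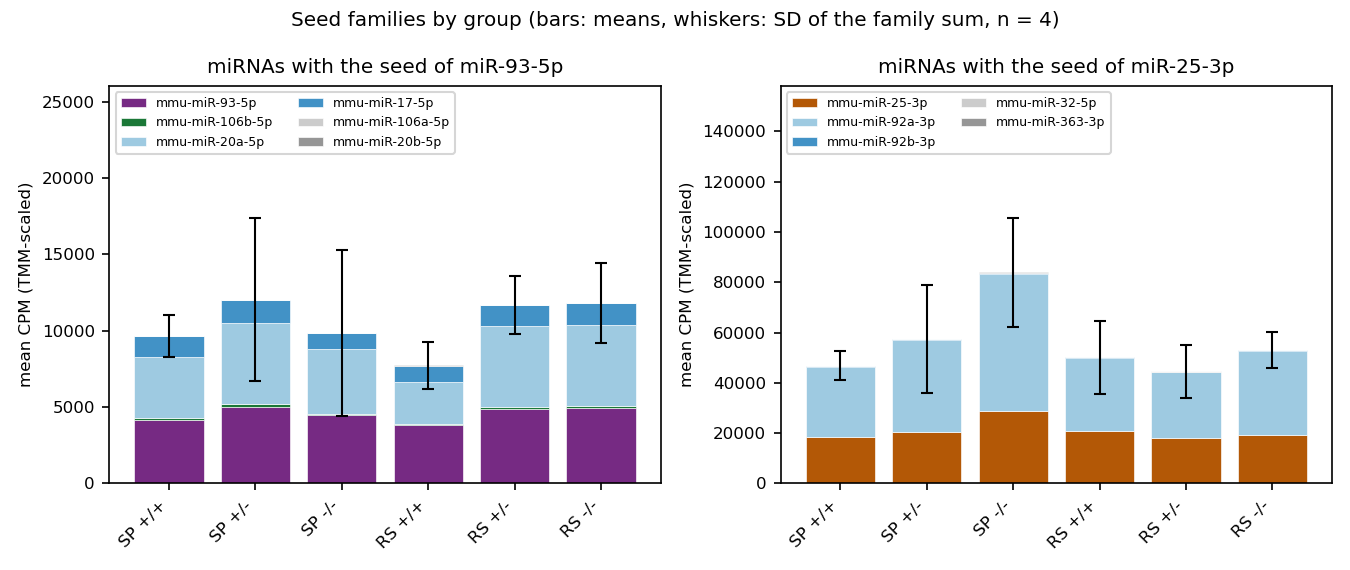
Mean level in CPM scaled by TMM (y axes from 0) of the miRNAs with the seed of mmu-miR-93-5p (left) and of mmu-miR-25-3p (right) by group, stacked; whiskers are the SD of the family sum (n = 4), SP spermatocytes and RS round spermatids. The part of mmu-miR-93-5p and mmu-miR-106b-5p in the left family is 50.7% in wild-type and 42.7% in Ago413-/- round spermatids.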

How the data were processed

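Small RNA libraries of 24 fractions were sequenced as single-end reads. Per the labels and the study's methods, the authors trimmed reads with Trim Galore, mapped and quantified them with miRDeep2 against the mature mouse miRNAs of miRBase (mm10), and deposited raw counts of 1978 mature miRNAs, without normalization. Ligation and trimming can favour some sequences and hence an arm. Totals ran from 182904 to 1072637 counts, where 3 counts, the limit a count of 0 allows, are 2.74 to 20.0 CPM. Limits from a count of 0 cover counting error only, whereas the intervals of fold changes include the spread between libraries.

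Counts were analysed with edgeR 4.0.16 (R 4.3.3) by the quasi-likelihood test with TMM scaling, on miRNAs that reached 10 counts in 3 or more libraries of the fit, with Benjamini-Hochberg adjustment over all miRNAs of a fit. Genotypes were compared in the 12 libraries of a cell type, and cell types in a fit of all 24. A call needed a change of 1 or more on the log2 scale in either direction besides an adjusted p below 0.05, which alone was needed for the interaction. Arm balance, log2 of (5p + 0.5) over (3p + 0.5) counts, ratios and shares were compared by exact permutation tests (scipy 1.17.1) in families of 27, 18 and 18 tests. On counts simulated for Ago413-/- against Ago413+/+, changes of 1.5 and 2 on the log2 scale were recovered in 69.5% and 87.4% of cases in spermatocytes (404 miRNAs) and in 87.9% and 96.0% in round spermatids (426). Smaller changes were not simulated. The simulation changed 105 and 95 of the 404 miRNAs and 99 and 101 of the 426 by these amounts. In the data 4.46% and 16.2% were called, and adjustment is stricter where fewer miRNAs change, so recovery there can be lower. The rates are over all miRNAs and not over the scarce arms. Libraries came from pools of mice, and p-values measure the spread between libraries, which may in part be technical. The closest pair of libraries in a group differed by 22.8 times the sampling noise (chi-square per degree of freedom), so none was the same library sequenced again. Libraries prepared separately from the same RNA are not excluded by this. Alternatives were other scalings, DESeq2 1.42.0, other filters, a replicate block, a library number term, only the groups compared, summed seed families and leaving out libraries. The named miRNAs are the 6 members, the paralogs with their seeds, the 5 most alike in pattern for each abundant arm, and cell type markers. The members, lists and tests were chosen with earlier results of these data known. Sequences are from RefSeq, where 1679 of the 1978 names matched.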

Additional observations from a re-analysis of the deposited data

Results flagged for a closer look

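In 78 groups of 4 libraries, 3 had a library far from the others by the gap between it and its neighbour relative to the range of the group, where chance gives about 1 in 20, or 3.9 of 78. mmu-miR-93-3p was at 19.5 CPM in Ago413-/- round spermatid replicate 2, from 7 counts, and at 14.2 to 15.1 CPM in the other libraries. The log2(5p/3p) balance of miR-25 was -6.62 in Ago413-/- spermatocyte replicate 2, the library with the lowest total, and -8.35 to -8.10 in the other 3. mmu-miR-25-3p held 31.3% of its seed family in Ago413+/- spermatocyte replicate 2 and 36.4% to 37.1% in the others.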

How the results depend on the processing

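The lower mmu-miR-25-5p in Ago413-/- than in Ago413+/+ round spermatids kept its call under every alternative run. The number of members called in that comparison, 2, became 1 when 10 counts were required in every library (5 members tested) and with only the groups compared in the fit. For Ago413-/- against Ago413+/- round spermatids it went from 1 to 2 on the adjusted p alone, with library totals without scaling and with no filter, and to 0 with 10 counts in every library, where mmu-miR-93-3p was not tested. In spermatocytes it went from 0 to 1 against Ago413+/+ with library totals without scaling, DESeq2 and no filter, and from 0 to 2 against Ago413+/- with DESeq2, no filter and without the pair of libraries that stood apart. Between the cell types of Ago413-/- it went from 1 to 0 with no filter, only the groups compared and without that pair. Leaving out 1 library gave 0 to 1 members in Ago413-/- against Ago413+/+ spermatocytes, 0 to 2 against Ago413+/-, 1 to 2 and 0 to 2 in the same comparisons of round spermatids and 0 to 1 between the cell types. The causes were not tested.

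The difference of 2.32 in the balance of miR-93 between Ago413-/- and Ago413+/+ spermatocytes was 0.49 with a pseudocount of 5 counts, which carries more weight where an arm has 0 to 4 counts. With it the balance between the cell types of Ago413-/- turned from -1.01 to 0.55. Differences that turned without being called were those of mmu-miR-106b-5p in Ago413+/- against Ago413+/+ spermatocytes (-0.26 to 0.87 on leaving out 1 library), of mmu-miR-106b-5p in Ago413-/- against Ago413+/+ round spermatids (-0.21 to 0.40), and of mmu-miR-106b-5p between the cell types of Ago413+/- (-0.49 to 0.47). In Ago413-/- against Ago413+/+ round spermatids mmu-miR-106b-3p was at -0.041 with library totals, -0.042 with no filter and -0.11 to 0.30 on leaving out 1 library. There mmu-miR-25-3p was at -0.17 with no filter and -0.32 to 0.26 on leaving out 1 library, and against Ago413+/- it was at -0.073 with library totals.

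Counts over all miRNAs moved by more than 1.5 times from 18 to 61 (DESeq2), 55 (no filter) and 36 (without the pair) in Ago413-/- against Ago413+/+ spermatocytes, and from 9 to 57, 40 and 61 in the same order, 57 without Ago413+/- replicate 4 and 3 with only the groups compared, against Ago413+/-. In round spermatids 69 became 42 and 53 became 35 with 10 counts in every library, and DESeq2 called 8 in place of 0 between Ago413+/- and Ago413+/+. With no filter the comparisons with a count of 0 had 4 to 8 calls, none of them a member. Between the cell types of Ago413-/-, 22 became 37 (DESeq2), 43 (no filter), 2 (only the groups compared) and 1 (without the pair). Leaving out 1 library gave 1 to 62 there (62 without spermatocyte replicate 1, and 1 to 5 without spermatocyte replicate 2 or 4 or any round spermatid library). It gave 8 to 18 in Ago413-/- against Ago413+/+ spermatocytes (8 without wild-type replicate 3, 11 without wild-type replicate 2) and 4 to 57 against Ago413+/- (4 without Ago413+/- replicate 1). In round spermatids it gave 59 to 74 and, against Ago413+/-, 31 to 65 (31 without Ago413-/- replicate 3, 35 without Ago413-/- replicate 1).

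Same-numbered libraries of the cell types within a genotype had consecutive library numbers in 11 of 12 cases. Whether they came from the same mice is not given in the sources used here. Of these 12 pairs, 6 correlated above 0.1 (median r = 0.17), and 10 of 24 libraries correlated best with their own number. Same-numbered libraries of different genotypes had a median r of -0.08 in spermatocytes and -0.06 in round spermatids. The replicates were not treated as paired, and shared mice were not excluded. The comparisons of cell types therefore leave out a pairing that may exist. In fits of a single cell type the replicate block joined libraries of the same number across genotypes, which does not address mice shared between the cell types. In the fit of all 24 libraries it joined the cell types within a genotype. With the former block mmu-miR-93-3p in Ago413-/- against Ago413+/- round spermatids was at -1.23 (adjusted p = 0.0550), so that 0 members were called. Neither block changed another call of a member. The scarce arms, with 0 to 37 counts in Ago413-/- libraries of either cell type for miR-93 and miR-25, set the limit of depth.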
